A study of Homo sapiens with 18 samples.

Results

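The genes described here are 28 genes that encode proteins of the cytoplasmic small ribosomal subunit, chosen by matching the gene symbol of the counts table exactly, so that processed pseudogenes were left out. They are 28 of the 58815 genes in that table, and all 28 were among the 12095 genes that passed the filter on low counts. The RNA came from derivatives of the established human triple-negative breast cancer line MDA-MB-231 that were selected in mice for growth in lung (LM2), brain (BrM3) and bone (BoM). Cells of every group, controls included, carried a hairpin under a doxycycline (DOX)-inducible promoter, were kept in DOX at 1 μg/mL for 3 days, and expressed either the control hairpin shCtrl or a single hairpin against WDR5, shWDR5-1. Each line and hairpin had 3 replicates harvested at different passages, which gives 18 libraries, and the cell line tag of the brain line reads BrM2 where the study writes BrM3. For 12 of the 18 libraries the source name gives another metastatic variant than the title and the cell line tag. The line was taken from the title, which the column names of the counts table match, and in 18 of 18 libraries the most closely correlated other library was of the line in the title. The column names mark the arm that is not WDR5 with letters that the labels do not explain, and it was read as shCtrl, the only other arm. The questions addressed are how these genes responded to loss of WDR5 in each line, and whether their level differed between the lines in control cells.

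The small ribosomal subunit binds the mRNA, scans it for the start codon and reads the codons, while the large subunit joins amino acids. Its proteins sit on the ribosomal RNA of a head, which holds part of the mRNA channel, and of a body and platform, which carry the mRNA entry and exit. Most small subunit proteins are present once in each ribosome, and their mRNAs typically start with a C followed by a run of pyrimidines, the terminal oligopyrimidine (TOP) tract. WDR5 is a scaffold of the complexes that methylate histone H3 at promoters.

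The level of a gene is given as CPM (the share of a library's counts on a fixed scale) after scaling each library with edgeR's TMM factors, and a change as the log2 fold change of shWDR5 over shCtrl with its standard error (SE). Genes were tested with the quasi-likelihood method of edgeR, and a gene was called at a Benjamini-Hochberg adjusted p under 0.05 over all 12095 tests. Total counts ranged from 17485841 to 119667013 per library. WDR5 stood at 112 to 133 CPM in the LM2 shCtrl libraries and at 20.4 to 24.3 CPM after knockdown, and its log2 fold changes in LM2, BrM3 and BoM were -2.43 ± 0.14, -1.97 ± 0.14 and -2.24 ± 0.14 (adjusted p = 1.8e-08, 4.2e-07 and 6.2e-08). Of the markers of this line, VIM ranged from 1488 to 2221 CPM and CD44 from 495 to 762 CPM over the 18 libraries, whereas ESR1 and PGR did not exceed 0.712 CPM. CDH1 and EPCAM were also listed as low. CDH1 did not exceed 0.598 CPM, but EPCAM ranged from 4.37 to 10.08 CPM. SPARC, listed as a marker, varied from 1.05 to 404 CPM. Of the markers of other cell types, PTPRC, CD3E, CDH5 and ALB did not exceed 1.05 CPM, while PECAM1 reached 4.65 and GFAP 9.93 CPM. The BoM shWDR5 library of replicate 3 held the highest value of its group for 27 of the 28 members, BoM shCtrl replicate 2 for 24 and BrM3 shCtrl replicate 2 for 22. In bulk RNA a smaller share of expressing cells and less RNA per cell cannot be told apart, and since the counts table holds 0 rows for spike-in RNA, each level is relative to the rest of its library.

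WDR5 knockdown lowered one group of the small subunit genes in each line, and another group was called higher when the lines were averaged. Within a line, few members were called higher in LM2 and BrM3, and those in BoM depended on single libraries. In LM2, 10 of the 28 members fell and 0 rose, where 4.77% of all tested genes were called lower and 1.48% higher. In BrM3, 8 members fell and 1 rose, against 7.92% and 2.89% of all tested genes. In BoM, 10 members fell and 5 rose, against 10.7% and 5.42%. With the responses of the 3 lines averaged in the same fit, 11 members fell and 11 rose, where 19.9% of all tested genes were called lower and 15.6% higher. The 6 members not called on average were RPS2, RPS9, RPS19, RPS28, RPS29 and FAU. For the rise in LM2, where edgeR called 0 members, 10 passed at an unadjusted p under 0.05, beside 7.6% of all tested genes, and DESeq2 called 2, beside 3.38%.

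The direction was shared by the lines. RPS3, RPS3A, RPS4X, RPS6, RPS7, RPS10, RPS14, RPS15, RPS15A, RPS18 and RPS24 had a negative log2 fold change in all 3 lines, 16 others a positive one, and only RPS2 changed sign. A shared sign was also common elsewhere: of all 12095 tested genes, 4057 were negative and 4236 positive in all 3 lines. Across members the log2 fold changes spanned -1.03 to 0.56 (LM2), -1.01 to 0.49 (BrM3) and -0.96 to 0.62 (BoM). The largest decreases exceeded the largest increases in size, and the median over the 28 members was positive, at 0.23, 0.18 and 0.22 for LM2, BrM3 and BoM, beside -0.0008, -0.0053 and 0.015 over all tested genes. The libraries of the hairpin groups did not overlap for 21 members in LM2 (9 lower and 12 higher), 19 in BrM3 (10 lower and 9 higher) and 12 in BoM (10 lower and 2 higher, RPS13 and RPS16). Over all tested genes the shares without overlap, for LM2, BrM3 and BoM, were 14.6%, 19.7% and 17.3% lower and 10.7%, 15.8% and 12.9% higher.

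**Figure D1:**
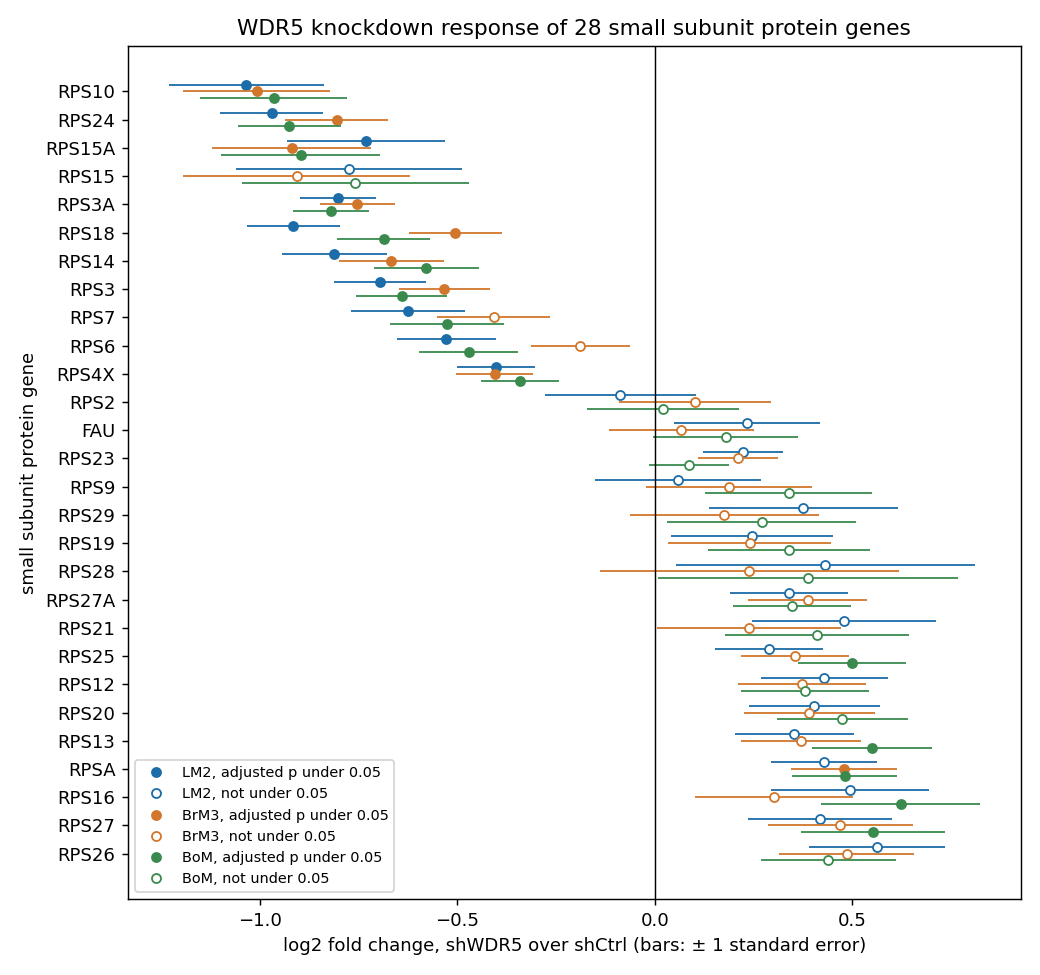
Log2 fold change of shWDR5 over shCtrl for each of the 28 members in LM2 (blue), BrM3 (orange) and BoM (green), ordered by the average over the lines, with bars of 1 SE to each side and filled points for an adjusted p under 0.05. A block of 11 members lies left of 0 in every line, RPS2 lies at 0, and the other 16 lie right of 0, where few points are filled.

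In all 3 lines, 8 members fell: RPS3, RPS10 and RPS18 of the head, and RPS3A, RPS4X, RPS14, RPS15A and RPS24 of the body and platform. Of these, RPS10 passed the filter on low counts only through control libraries. Over all tested genes, 393 of 12095 were called lower in all 3 lines and 91 higher. No member was called higher in all 3 lines.

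The start of 7 member genes is shown because most members begin with the same kind of pyrimidine run, and these 7 include genes that fell (RPS3A, RPS24, RPS18, RPS14 and RPS4X) and genes that rose on average (RPSA and RPS27) after knockdown. Each line gives 100 bases before to 20 bases from the annotated start site, in the direction of the gene, from RefSeq on GRCh38.p14. Capitals mark a pyrimidine run at the start (a C followed by at least 4 more C or T, beginning within 5 bases of the start site) and any match, on either strand, to the other letters searched.
RPS3A (chr4:151099528-151099647, plus strand): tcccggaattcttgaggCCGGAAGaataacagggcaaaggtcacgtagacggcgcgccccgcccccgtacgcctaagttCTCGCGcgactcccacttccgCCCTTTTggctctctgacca
RPS24 (chr10:78033763-78033882, plus strand): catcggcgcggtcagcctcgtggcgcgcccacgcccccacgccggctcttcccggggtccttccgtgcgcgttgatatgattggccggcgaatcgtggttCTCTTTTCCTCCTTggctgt
RPS18 (chr6:33271975-33272094, plus strand): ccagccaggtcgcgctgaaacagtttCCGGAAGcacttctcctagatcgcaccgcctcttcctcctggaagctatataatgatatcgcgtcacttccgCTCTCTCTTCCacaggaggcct
RPS14 (chr5:150449720-150449839, minus strand): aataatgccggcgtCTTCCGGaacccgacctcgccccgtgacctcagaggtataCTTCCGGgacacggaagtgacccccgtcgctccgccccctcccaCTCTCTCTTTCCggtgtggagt
RPS4X (chrX:72277229-72277348, minus strand): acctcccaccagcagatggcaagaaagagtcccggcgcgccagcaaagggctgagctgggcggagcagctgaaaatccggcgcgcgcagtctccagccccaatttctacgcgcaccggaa
RPSA (chr3:39406620-39406739, plus strand): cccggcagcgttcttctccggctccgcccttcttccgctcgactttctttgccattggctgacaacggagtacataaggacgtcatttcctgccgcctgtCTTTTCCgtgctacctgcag
RPS27 (chr1:153990662-153990781, plus strand): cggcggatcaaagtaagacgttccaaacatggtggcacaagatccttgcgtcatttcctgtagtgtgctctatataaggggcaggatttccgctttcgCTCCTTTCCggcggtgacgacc
Of the 28 members 25 had a window of 300 bases (250 before and 50 after the start), and RPS2, RPS15A and RPS20 had none. The pyrimidine run was found in 21 of 25 members (84.0%) and in 25.2% of the windows of all 27305 gene symbols. It was found in 8 of 10 members with a window that fell on average, in 9 of 10 that rose and in 4 of 5 not called. RPS4X and RPS15, which fell, RPS26, which rose, and RPS29, which was not called, held no run of this kind at the annotated start. The core of ETS family sites, CCGGAAG, was in 9 members (36.0%, beside 12.2% of all), 6 of the 10 that fell, 3 of the 10 that rose and 0 of the 5 not called. The letters CTCGCG were in 11 members (44%, beside 18.5%), 5 of the 10 that fell, 2 of the 10 that rose and 4 of the 5 not called. The YY1 core AAGATGG was in 4 (16.0%, beside 7.11%), 2 of which fell, 0 of which rose and 2 of which were not called. The E-box CACGTG, which reads the same on both strands, was in 2 (8.0%, beside 8.77%), and TATAAA was in 2 (8.0%, beside 14.0%). The pyrimidine run was searched on the strand of the gene only and each of the other motifs on both strands. No motif lies within another, and a match describes letters only. RPS4X held the ETS core in its window of 300 bases, but not wholly within the printed bases, so it is not in capitals.

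RPS3, a head protein at the entry of the mRNA channel, also has a described role in DNA repair. In LM2, RPS3 stood at 1730, 1693 and 1651 CPM in shCtrl and at 1142, 1048 and 943 CPM in shWDR5. In BrM3, RPS3 stood at 1307, 1379 and 1220 CPM in shCtrl and at 763, 938 and 998 CPM in shWDR5. In BoM, RPS3 stood at 987, 1184 and 1019 CPM in shCtrl and at 585, 697 and 763 CPM in shWDR5. All shWDR5 libraries lay below all shCtrl libraries of their line. RPS3 changed by -0.70 ± 0.12, -0.53 ± 0.12 and -0.64 ± 0.12 in LM2, BrM3 and BoM on the log2 scale (adjusted p = 0.0014, 0.0065 and 0.0012), and the call held with each of the 18 libraries left out in turn.

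RPS18 is a head protein that takes part in a bridge to the large subunit. In LM2, RPS18 stood at 1842, 1973 and 2144 CPM in shCtrl and at 1109, 1088 and 965 CPM in shWDR5. In BrM3, RPS18 stood at 2906, 3163 and 2713 CPM in shCtrl and at 2058, 1930 and 2199 CPM in shWDR5. In BoM, RPS18 stood at 2067, 2312 and 1953 CPM in shCtrl and at 1094, 1262 and 1579 CPM in shWDR5. The groups did not overlap in any line, and the BrM3 libraries were the highest under both hairpins. RPS18 changed by -0.91 ± 0.12, -0.51 ± 0.12 and -0.69 ± 0.12 on the log2 scale (adjusted p = 0.00017, 0.01 and 0.00077). The BrM3 call was lost without BrM3 shCtrl replicate 2 or BrM3 shWDR5 replicate 2, with log2 fold changes between -0.56 and -0.45 over the 18 fits that leave out a library.

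RPS10, a protein of the head near its beak, had the largest mean decrease and by far the lowest counts, 10 to 238 per library. It passed the filter on low counts only through shCtrl libraries of BrM3 and BoM. The scaled counts of its LM2 and shWDR5 libraries all lay below the threshold. That RPS10 was tested thus depended on the groups where it was high, and its changes are a description. In LM2, RPS10 stood at 2.22, 2.03 and 1.93 CPM in shCtrl and at 1.11, 1.13 and 0.56 CPM in shWDR5. In BrM3, RPS10 stood at 3.90, 3.12 and 4.04 CPM in shCtrl and at 1.99, 1.95 and 1.63 CPM in shWDR5. In BoM, RPS10 stood at 4.04, 3.77 and 4.16 CPM in shCtrl and at 1.98, 1.81 and 2.34 CPM in shWDR5. The groups did not overlap in any line. Its log2 fold change was -1.03 ± 0.20, -1.01 ± 0.19 and -0.96 ± 0.19 (adjusted p = 0.0039, 0.0023 and 0.002). The level of RPS10 is uncertain: 84.0% of its MANE Select transcript (the reference transcript of the gene) is shared on the same strand with the readthrough gene RPS10-NUDT3, which is at 0 counts in all 18 libraries, and 45.2% of the counts summed over RPS10 and its 11 named pseudogenes were assigned to the pseudogenes. The LM2 call was lost when all libraries were thinned to the smallest one (adjusted p = 0.15, log2 fold change -0.71).

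RPS3A, a platform protein beside the mRNA exit where initiation factors bind, showed the smallest adjusted p of the members. In LM2, RPS3A stood at 495, 432 and 423 CPM in shCtrl and at 237, 252 and 285 CPM in shWDR5. In BrM3, RPS3A stood at 355, 365 and 362 CPM in shCtrl and at 216, 213 and 213 CPM in shWDR5. In BoM, RPS3A stood at 510.3, 569 and 539 CPM in shCtrl and at 274, 295 and 348 CPM in shWDR5. Knockdown and control libraries were clearly apart in every line, and the 3 BrM3 shWDR5 libraries spanned only 213 to 216 CPM. The log2 fold change of RPS3A was -0.80 ± 0.10, -0.75 ± 0.10 and -0.82 ± 0.10 (adjusted p = 0.00012, 0.00014 and 2.4e-05), that is, 57.4%, 59.4% and 56.7% of the control level. The gene SH3D19 on the other strand shares 24.1% of the MANE Select transcript of RPS3A, and the strand setting of the counting is not given. The 38 named pseudogenes of RPS3A held 6.68% of the summed counts.

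RPS24, a body protein whose gene is mutated in some families with Diamond-Blackfan anaemia, also fell in all 3 lines. In LM2, RPS24 stood at 1019, 1006 and 1263 CPM in shCtrl and at 554, 555 and 569.9 CPM in shWDR5. In BrM3, RPS24 stood at 1038, 1030 and 891 CPM in shCtrl and at 546, 529.9 and 617 CPM in shWDR5. In BoM, RPS24 stood at 1050, 1323 and 1124 CPM in shCtrl and at 496, 616 and 731 CPM in shWDR5. The groups did not overlap in any line. The log2 fold change of RPS24 was -0.97 ± 0.13, -0.81 ± 0.13 and -0.93 ± 0.13 (adjusted p = 0.00027, 0.00093 and 0.00016), or 51.1%, 57.2% and 52.7% of the control level. The calls of RPS3A and RPS24 held with each library left out and under every alternative tried.

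RPS14, a platform protein whose gene lies in the region lost in a myelodysplastic syndrome with deletion of the long arm of chromosome 5, behaved likewise. In LM2, RPS14 stood at 723, 726 and 779 CPM in shCtrl and at 432, 416 and 422 CPM in shWDR5. In BrM3, RPS14 stood at 649, 708 and 705 CPM in shCtrl and at 378, 457 and 464 CPM in shWDR5. In BoM, RPS14 stood at 653, 812 and 791 CPM in shCtrl and at 384, 513 and 614 CPM in shWDR5. The groups did not overlap, but the gap was narrow in BoM, where the highest knockdown library reached 614 CPM and the lowest control 653 CPM. RPS14 changed by -0.81 ± 0.13, -0.67 ± 0.13 and -0.58 ± 0.13 on the log2 scale (adjusted p = 0.0013, 0.0038 and 0.0068). The BoM value had an adjusted p of 0.057 when only the 6 BoM libraries were fitted.

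RPS4X, a body protein encoded on the X chromosome, had the smallest decrease of the 8. In LM2, RPS4X stood at 1340, 1226 and 1290 CPM in shCtrl and at 973, 936 and 1010 CPM in shWDR5. In BrM3, RPS4X stood at 1380, 1383 and 1365 CPM in shCtrl and at 948, 1094 and 1075 CPM in shWDR5. In BoM, RPS4X stood at 1224, 1336 and 1331 CPM in shCtrl and at 843, 1069 and 1160 CPM in shWDR5. Its groups did not overlap in any line, although the level remained at 75.7%, 75.5% and 78.9% of the control. On the log2 scale RPS4X changed by -0.40 ± 0.10, -0.41 ± 0.10 and -0.34 ± 0.10 (adjusted p = 0.02, 0.013 and 0.025). The LM2 call was lost without LM2 shCtrl replicates 1 or 3 or LM2 shWDR5 replicates 1 or 2, with log2 fold changes from -0.43 to -0.37. The BoM call was lost without BoM shCtrl replicates 2 or 3 or BoM shWDR5 replicate 1, with log2 fold changes from -0.44 to -0.22, and also with filterByExpr (adjusted p = 0.054) or with no expression filter (adjusted p = 0.072).

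RPS15A, a body protein, had the fewest counts after RPS10, 432 to 4340 per library. In LM2, RPS15A stood at 47.5, 48.4 and 35.2 CPM in shCtrl and at 19.1, 23.2 and 37.4 CPM in shWDR5. In BrM3, RPS15A stood at 46.1, 57.0 and 42.6 CPM in shCtrl and at 24.5, 29.1 and 23.5 CPM in shWDR5. In BoM, RPS15A stood at 38.6, 44.2 and 44.3 CPM in shCtrl and at 24.1, 19.0 and 25.1 CPM in shWDR5. The groups overlapped in LM2, where knockdown replicate 3 exceeded the lowest control, and did not overlap in BrM3 or BoM. The log2 fold change of RPS15A was -0.73 ± 0.20, -0.92 ± 0.20 and -0.90 ± 0.20 (adjusted p = 0.037, 0.007 and 0.0061). The LM2 call was lost without LM2 shCtrl replicates 1 or 2 or LM2 shWDR5 replicates 1 or 2, with log2 fold changes from -1.05 to -0.54. Another gene on the same strand shares 9.90% of the MANE Select transcript of RPS15A.

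**Figure D2:**
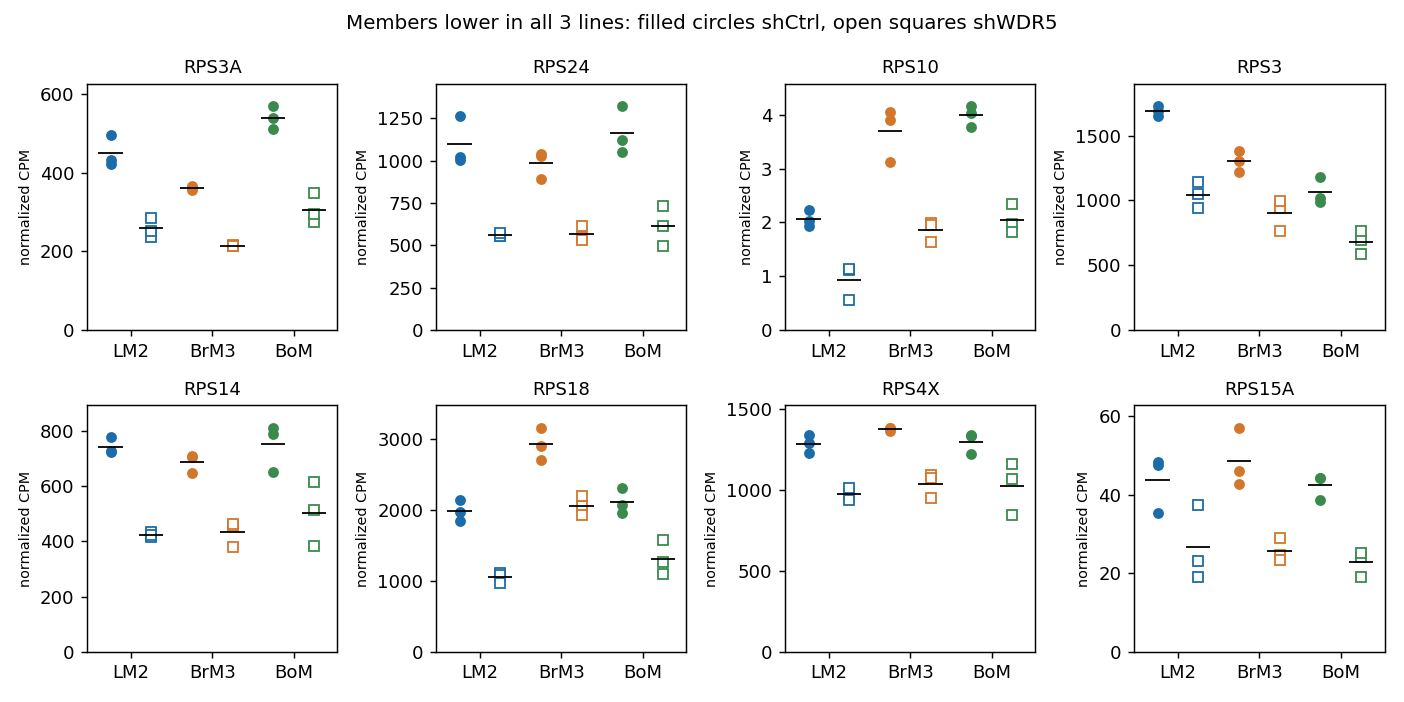
Normalized CPM of the 8 members called lower in all 3 lines, one panel per gene with its own axis from 0; each point is a library (filled circles shCtrl, open squares shWDR5) and each black line is the mean of 3. The squares lie below the circles of their line in every panel except LM2 of RPS15A, where a knockdown library at 37.4 CPM exceeds a control at 35.2 CPM.

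RPS6, the body protein phosphorylated by the ribosomal protein S6 kinases, and RPS7, a body protein needed for assembly, were called lower in LM2 and BoM. RPS6 had a log2 fold change of -0.53 ± 0.13, -0.19 ± 0.13 and -0.47 ± 0.13 in LM2, BrM3 and BoM (adjusted p = 0.017, 0.38 and 0.017). RPS7 had a log2 fold change of -0.62 ± 0.14, -0.41 ± 0.14 and -0.53 ± 0.14 (adjusted p = 0.014, 0.079 and 0.019). The BrM3 libraries overlapped for RPS6 and did not for RPS7. A gene on the other strand shares 20.6% of the MANE Select transcript of RPS6. The LM2 calls of RPS6 and RPS7 were lost without LM2 shCtrl replicate 3, LM2 shWDR5 replicate 2 or LM2 shWDR5 replicate 3, with log2 fold changes from -0.59 to -0.46 for RPS6 and from -0.72 to -0.55 for RPS7. In BoM both calls were lost without BoM shCtrl replicate 2 or BoM shWDR5 replicate 1, and that of RPS7 also without BoM shWDR5 replicate 2, with log2 fold changes from -0.57 to -0.32 for RPS6 and from -0.74 to -0.38 for RPS7.

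RPS15, a head protein near the decoding site, had changes as large as those of RPS3A but a wide spread between replicates. In LM2, RPS15 stood at 229, 308 and 364 CPM in shCtrl and at 133, 143 and 252 CPM in shWDR5. In BrM3, RPS15 stood at 169.6, 249 and 181 CPM in shCtrl and at 73.8, 131 and 114 CPM in shWDR5. In BoM, RPS15 stood at 129, 209 and 164 CPM in shCtrl and at 75.8, 83.8 and 137 CPM in shWDR5. The groups overlapped in LM2 and BoM and were apart in BrM3. Its log2 fold change was -0.77 ± 0.29, -0.91 ± 0.29 and -0.76 ± 0.29, with adjusted p = 0.12, 0.052 and 0.084, and in the same fit the average over the lines passed, at -0.81 ± 0.17 (adjusted p = 0.0011). RPS15 was called lower in BrM3 and BoM with DESeq2 (adjusted p = 0.014 and 0.043), and in all 3 lines when the dependence of each library on GC content was removed (adjusted p = 0.013, 0.0075 and 0.036).

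On average over the lines, 11 members rose: RPS12, RPS16, RPS20, RPS25 and RPS27A of the head, and RPSA, RPS13, RPS21, RPS23, RPS26 and RPS27 of the body and platform. Their average log2 fold changes ran from 0.17 for RPS23, a protein of the decoding centre, to 0.50 for RPS26, which touches the mRNA upstream of the start codon (adjusted p = 0.029 and 0.00094). RPS27, a zinc-binding protein, had 0.48 ± 0.11 (adjusted p = 0.002), and RPS16 had 0.47 ± 0.12 (adjusted p = 0.0043). RPS27A, which is made as a fusion with ubiquitin, had 0.36 ± 0.09 (adjusted p = 0.004). Genes on the other strand share 31.7% of its MANE Select transcript. The call of RPS21 was lost in 10 of the 18 fits that leave out a library and that of RPS23 in 4.

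RPSA, a body protein also known as the laminin receptor precursor, was the member called higher in 2 lines. In LM2, RPSA stood at 1508, 1251 and 1164 CPM in shCtrl and at 1841, 1614 and 1823 CPM in shWDR5. In BrM3, RPSA stood at 979, 936 and 999.9 CPM in shCtrl and at 1219, 1407 and 1435 CPM in shWDR5. In BoM, RPSA stood at 1332, 1487 and 1591 CPM in shCtrl and at 1559, 2275 and 2316 CPM in shWDR5. The groups were apart in LM2 and BrM3 and overlapped in BoM. The log2 fold change of RPSA was 0.43 ± 0.13, 0.48 ± 0.13 and 0.48 ± 0.13 (adjusted p = 0.069, 0.029 and 0.021), and was not called in LM2. The BrM3 call of RPSA was lost without any one of BrM3 shCtrl replicates 1, 2 or 3 or BrM3 shWDR5 replicates 2 or 3, with log2 fold changes from 0.43 to 0.55 over the 18 fits, and the BoM call without any one of BoM shCtrl replicates 1 or 2 or BoM shWDR5 replicates 2 or 3, with log2 fold changes from 0.38 to 0.64. RPSA has 74 named pseudogenes, which held 5.19% of the summed counts.

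In BoM, RPS13, RPS16, RPS25 and RPS27 were also called higher. With each of the 18 libraries left out, the BoM call held in 15 fits for RPS13 and RPS25, in 9 for RPS16 and in 4 for RPS27. RPS13, a body protein, stood there at 438, 462 and 453 CPM in shCtrl and at 507, 556 and 918 CPM in shWDR5. The control libraries lay close together and knockdown replicate 3 far above its fellows. The log2 fold change of RPS13 was 0.35 ± 0.15, 0.37 ± 0.15 and 0.55 ± 0.15 (adjusted p = 0.19, 0.14 and 0.02). Without BoM shWDR5 replicate 3, members called higher in BoM went from 5 to 0, while they went from 0 to 5 in LM2 and from 1 to 8 in BrM3. They were also 0 in BoM without BoM shCtrl replicate 1, and 8 without BoM shWDR5 replicate 1. The average over the lines kept between 9 and 12 members higher, and 11 lower, with any library left out. For these fits no share over all tested genes is given. Whether the changes in count are particular to the members was not tested.

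RPS2, a body protein at the mRNA entry, had the smallest average change. In LM2, RPS2 stood at 739, 912 and 1047 CPM in shCtrl and at 755, 741 and 1044 CPM in shWDR5. In BrM3, RPS2 stood at 779, 1012 and 932 CPM in shCtrl and at 833, 1043 and 1046 CPM in shWDR5. In BoM, RPS2 stood at 869.9, 1194 and 878 CPM in shCtrl and at 714, 1100 and 1171 CPM in shWDR5. The groups overlapped in all 3 lines. Its average log2 fold change was 0.01 ± 0.11 (adjusted p = 0.95), and the sign depended on which library was left out.

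**Figure D3:**
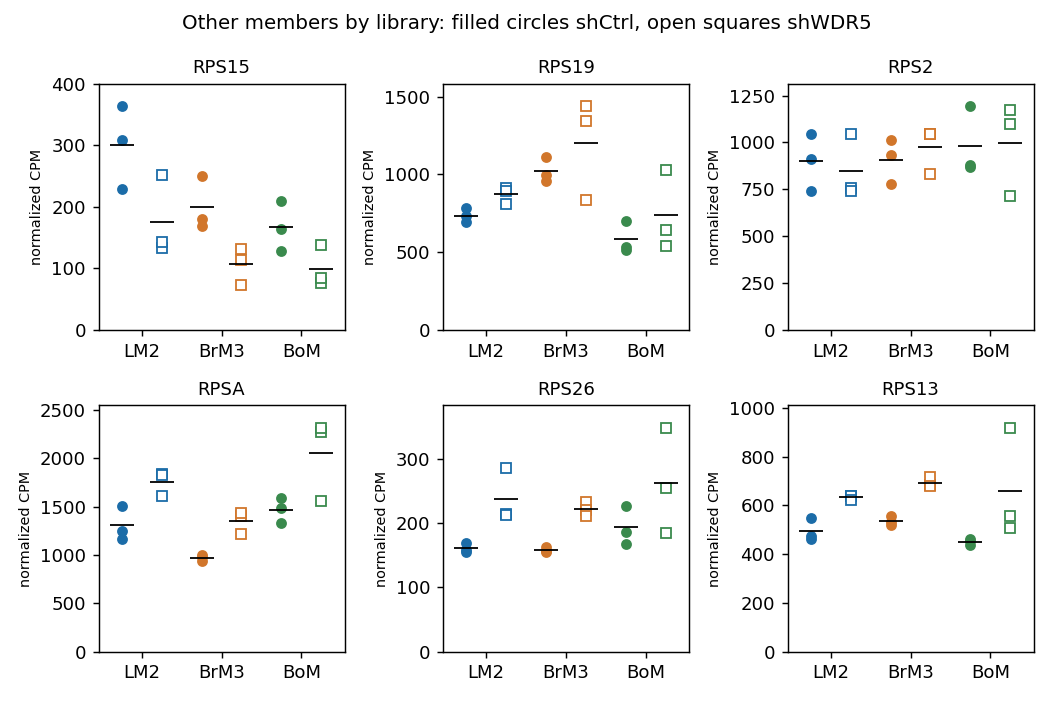
Normalized CPM of 6 other members, one panel per gene with its own axis from 0; each point is a library (filled circles shCtrl, open squares shWDR5) and each black line is the mean of 3. RPS15 is lower and RPSA, RPS26 and RPS13 are higher on average after knockdown, RPS2 overlaps throughout, and the highest BoM square of RPS13 is replicate 3 at 918 CPM.

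The head and the body with platform did not separate by direction. Of 12 head members, 4 fell and 5 rose on average, and of 16 body and platform members, 7 fell and 6 rose. Median log2 fold changes of the average were 0.31 and 0.09. GC content, taken from the longest annotated transcript of each gene, had a median of 44.9% (range 41.0% to 60.05%) for the 11 members that fell. It was 48.0% (40.6% to 56.1%) for the 11 that rose and 56.1% (42.8% to 59.9%) for the 6 not called. Removing each library's dependence on GC content gave 11, 9 and 11 members lower and 2, 6 and 10 higher in LM2, BrM3 and BoM. With that correction, 8.14%, 10.8% and 12.7% of all tested genes were called lower and 8.2%, 13.7% and 15.8% higher.

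Because the groups below were picked by the test, their sums are a description. The 11 members that fell on average summed in shCtrl and shWDR5 to 9478 ± 419.8 and 5788 ± 193 CPM for LM2 (SD, n = 3), 9756 ± 558 and 6869 ± 408 CPM for BrM3, and 9301 ± 724 and 6095 ± 1107 CPM for BoM. The 11 that rose summed likewise to 5862 ± 216 and 7762 ± 384 CPM for LM2, 5814 ± 286 and 7593 ± 616 CPM for BrM3, and 6130 ± 430.4 and 8441 ± 2293 CPM for BoM. All 28 members together summed to 18010 ± 550.3 and 16499 ± 696 CPM for LM2, 18590 ± 1086 and 17877 ± 1630 CPM for BrM3, and 17951 ± 1597 and 17449 ± 4213 CPM for BoM. The sum over all 28 members was lower after knockdown in LM2 by more than either SD, and in BrM3 and BoM the hairpin groups differed by less than the SD of either. As a share of the raw counts, the 28 members took 1.87% ± 0.04 and 1.63% ± 0.06 (LM2), 1.93% ± 0.09 and 1.74% ± 0.11 (BrM3) or 1.82% ± 0.17 and 1.65% ± 0.39 (BoM) under shCtrl and shWDR5 (SD, n = 3), so that on this scale the BrM3 groups also differed by more than either SD.

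**Figure D4:**
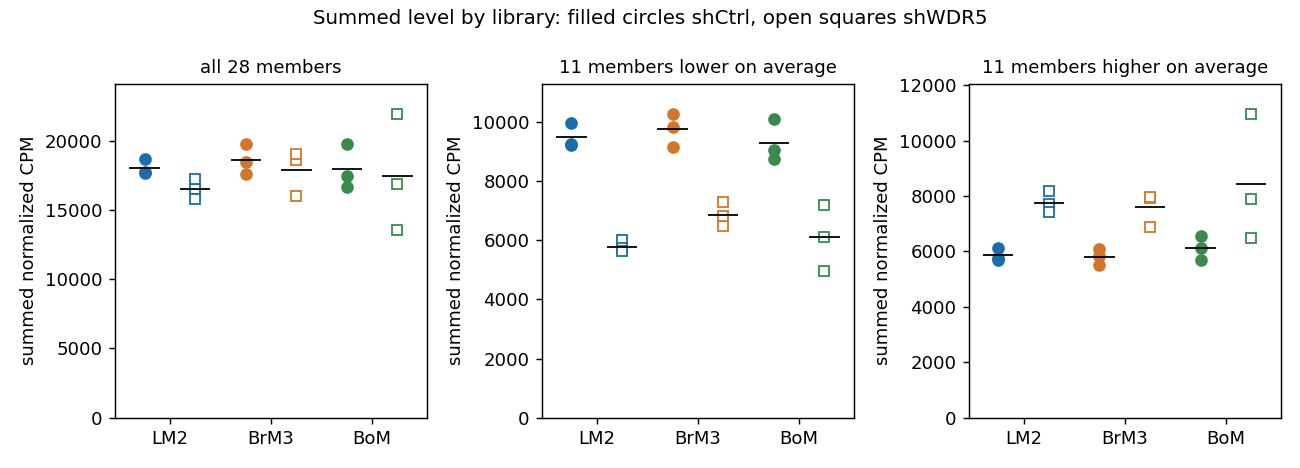
Summed normalized CPM of all 28 members, of the 11 that fell and of the 11 that rose on average, by line and hairpin; points are libraries (filled circles shCtrl, open squares shWDR5), black lines are means of 3, and the axes start at 0. The middle panel is lower and the right panel higher after knockdown, and the BoM shWDR5 library of replicate 3 is the highest point of all 3 panels within its group.

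The responses of the lines were not called different from each other for any member. By edgeR's quasi-likelihood test the difference of response had 0 members called for each pair of lines, where 0.00827% of all tested genes were called for BrM3 against LM2, 0.0% for BoM against LM2 and 0.00827% for BoM against BrM3. An unadjusted p under 0.05 was reached by 1 member for BrM3 against LM2 and by 0 for the other pairs, and DESeq2 called 0 in each. That member was RPS18, which fell less in BrM3 than in LM2, by 0.41 ± 0.17 (SE) on the log2 scale (unadjusted p = 0.024, adjusted p = 1). Over the members the differences spanned -0.24 to 0.41 (BrM3 against LM2), -0.17 to 0.28 (BoM against LM2) and -0.28 to 0.32 (BoM against BrM3).

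Between the lines in shCtrl, where the 3 comparisons share control libraries in pairs, some members differed in level. In BrM3 against LM2, 4 members were lower (RPS3, RPS3A, RPS6 and RPSA) and 4 higher (RPS7, RPS10, RPS18 and RPS27A), where 23.5% and 24.2% of all tested genes were called lower and higher. In BoM against LM2, 3 were lower (RPS3, RPS15 and RPS23) and 4 higher (RPS3A, RPS7, RPS10 and RPS27A), against 25.8% and 26.0%. The RPS23 call held in 15 of the 18 fits that leave out a library. In BoM against BrM3, 2 were lower (RPS18 and RPS19) and 2 higher (RPS3A and RPSA), against 19.8% and 17.9%. The share of members called was below that of all tested genes in each direction of each comparison.

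Of the members called between lines, RPS10, RPS15 and RPS19 had the largest differences. RPS10 was higher than in LM2 by 0.85 ± 0.18 in BrM3 and by 0.96 ± 0.18 in BoM on the log2 scale (adjusted p = 0.00074 and 0.00025), and its control libraries of LM2, at 1.93 to 2.22 CPM, did not overlap those of the other lines. Because RPS10 passed the filter on low counts only through the BrM3 and BoM controls, this difference is a description. RPS15 differed by -0.85 ± 0.29 between BoM and LM2 (adjusted p = 0.02), with 129 to 209 CPM in BoM and 229 to 364 CPM in LM2. That call was lost without BoM shCtrl replicates 1 or 3 or LM2 shCtrl replicate 3, with log2 differences from -1.04 to -0.68.

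RPS19, a head protein needed for maturation of the subunit and often mutated in Diamond-Blackfan anaemia, was higher in BrM3 than in BoM controls. In LM2, RPS19 stood at 692, 784 and 730.3 CPM in shCtrl and at 912, 812 and 893 CPM in shWDR5. In BrM3, RPS19 stood at 995, 1110 and 958 CPM in shCtrl and at 834, 1440 and 1341 CPM in shWDR5. In BoM, RPS19 stood at 517, 698 and 534 CPM in shCtrl and at 543, 643 and 1028 CPM in shWDR5. The BrM3 controls lay above all BoM controls, with a log2 difference of -0.81 ± 0.21 for BoM against BrM3 (adjusted p = 0.0056). The knockdown response of RPS19 was not called in any line.

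RPS3, RPS18 and RPS3A, which fell with knockdown, each had their own order of the lines. RPS3 was lower than in LM2 by -0.38 ± 0.12 in BrM3 and -0.67 ± 0.12 in BoM (adjusted p = 0.012 and 0.00012), and BrM3 and BoM did not pass the test (adjusted p = 0.055). RPS18 was higher in BrM3 than in LM2 by 0.56 ± 0.12 (adjusted p = 0.00083) and lower in BoM than in BrM3, with a log2 difference of -0.47 ± 0.12 (adjusted p = 0.0046), while BoM against LM2 gave 0.09 ± 0.12 (adjusted p = 0.56). RPS3A was highest in BoM, with a log2 difference of 0.58 ± 0.10 from BrM3 and 0.26 ± 0.10 from LM2 (adjusted p = 0.00015 and 0.028), and BrM3 was below LM2 by -0.32 ± 0.10 (adjusted p = 0.011). With each library left out, the BoM against LM2 call of RPS3A held in 14 of 18 fits. Its BrM3 against LM2 call, and that of RPS3, held in 17.

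RPSA differed by -0.43 ± 0.13 between BrM3 and LM2 (adjusted p = 0.014). RPS6 differed by -0.32 ± 0.13 in the same comparison (adjusted p = 0.042), a call that 7 of the 18 fits with a library left out lost. RPS7 and RPS27A were higher than in LM2 in both other lines. RPS7 differed by 0.41 ± 0.14 in BrM3 and 0.57 ± 0.14 in BoM, and RPS27A by 0.48 ± 0.15 and 0.52 ± 0.15 (adjusted p between 0.003 and 0.027 over the 4 values). With each library left out, the BrM3 call held in 14 of 18 fits for RPS7 and in 16 for RPS27A. The BoM calls of both held in all 18.

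**Figure D5:**
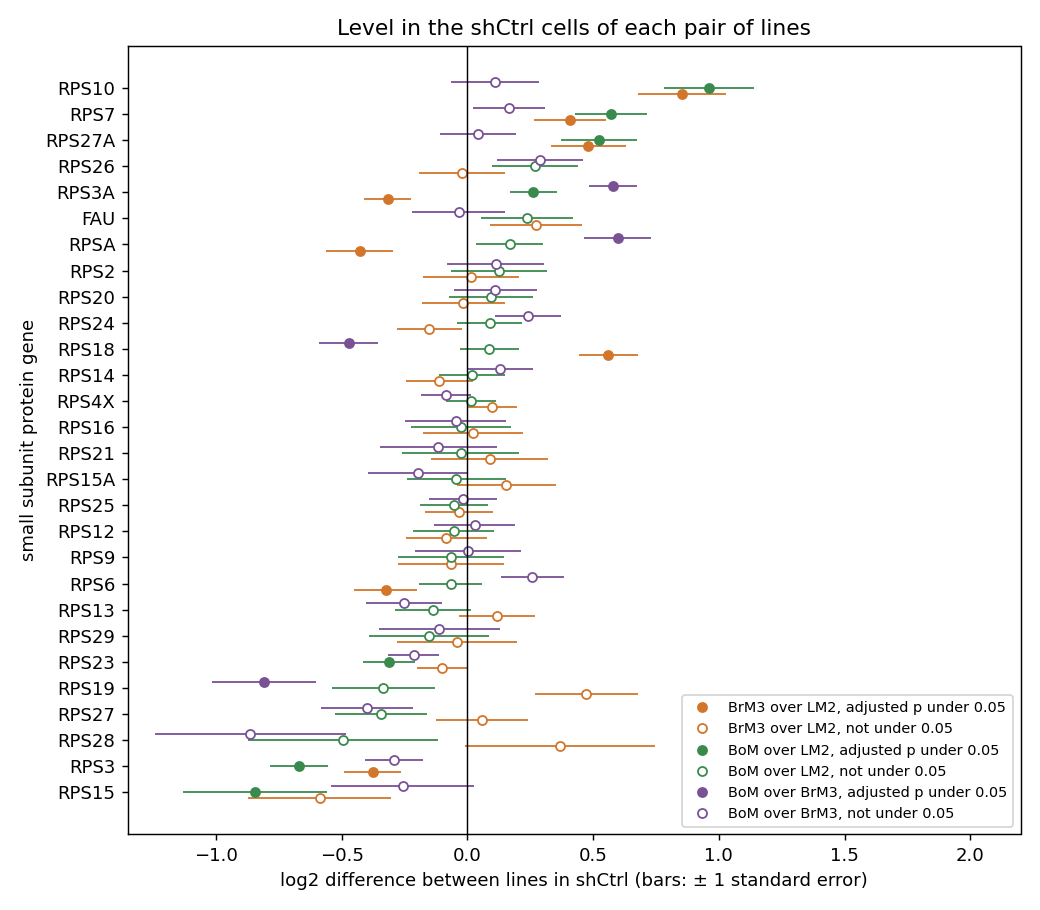
Log2 difference between lines in shCtrl for each of the 28 members, BrM3 over LM2 (orange), BoM over LM2 (green) and BoM over BrM3 (purple), with bars of 1 SE to each side and filled points for an adjusted p under 0.05. Most points are open and near 0, and RPS10, RPS15, RPS19 and RPS3 hold the filled points farthest from 0.

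Per kilobase of the union of a gene's exons, RPS18 ranked first and RPS10 last in the control cells of all 3 lines. In LM2, RPS18 stood at 1083 ± 82.5 CPM per kilobase (mean ± SD, n = 3) and RPS12, a head protein that ranked 2 in all 3 lines, at 1077 ± 69.1, a gap smaller than either SD. In BrM3 the levels were 1596 ± 123 and 1016 ± 119.9, which did not overlap. RPS10 stood at 0.89 ± 0.06, 1.59 ± 0.21 and 1.72 ± 0.09. Its low level and rank are uncertain, because 84.0% of its MANE Select transcript is shared on the same strand with RPS10-NUDT3. In addition, 45.2% of the counts summed over RPS10 and its pseudogenes were assigned to the pseudogenes. Other choices of length move many members in this order. RPS29, with 9840 bases of exon union and a MANE Select transcript of 295 bases, ranked 26 by the first and 8 by the second in LM2.

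The large subunit proteins and 3 other lists of translation genes are given for comparison, and no difference between a list and the members was tested. Over all tested genes, edgeR called 4.77%, 7.92% and 10.7% lower and 1.48%, 2.89% and 5.42% higher in LM2, BrM3 and BoM. DESeq2 called 733, 1136 and 1394 of 12092 genes lower and 409, 641 and 1075 higher. In edgeR an unadjusted p under 0.05 in either direction was reached by 2432, 3018 and 3659 of 12095 genes. Of 46 tested genes for large subunit proteins, 20 fell and 2 rose for LM2, 18 and 5 for BrM3, and 20 and 6 for BoM, the median log2 fold changes being -0.62, -0.39 and -0.43. RPL26 fell by 1.43, 1.37 and 1.47 and RPL17 by 1.21, 1.04 and 1.25 on the log2 scale in LM2, BrM3 and BoM (adjusted p from 0.00072 to 0.035). Of these 46 genes, 17 were called lower in all 3 lines and 2 higher, RPL14 and RPLP0, which are also the 2 that rose in LM2. Of all 12095 tested genes, 393 were called lower and 91 higher in all 3 lines.

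Of 37 tested assembly factors of the small subunit, edgeR called 0 lower in any line and 0, 9 and 7 higher in LM2, BrM3 and BoM, with medians of 0.13, 0.23 and 0.17. At an unadjusted p under 0.05, 0, 0 and 1 were lower and 9, 17 and 15 higher, and DESeq2 called 0, 0 and 1 lower and 3, 13 and 14 higher. PNO1, an assembly factor of the platform, had a log2 fold change of 0.32, 0.41 and 0.52 (adjusted p = 0.11, 0.025 and 0.0046). UTP4, of the early precursor particle, had 0.31, 0.36 and 0.48 (adjusted p = 0.11, 0.042 and 0.0068).

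Of 19 tested initiation factors that bind the small subunit, EIF3D was called lower and EIF1 higher in LM2, and 3 were called higher in BrM3 (EIF3B, EIF3J and EIF3L) and 3 in BoM (EIF1, EIF3B and EIF3J). EIF3D, EIF3B and EIF3L are named outside the rule for named genes, after their values were seen. No initiation factor was called lower in BrM3 or BoM by edgeR, where the count at an unadjusted p under 0.05 and that of DESeq2 were also 0. EIF1, which guards start codon choice, had 0.46, 0.40 and 0.54 in LM2, BrM3 and BoM (adjusted p = 0.041, 0.055 and 0.0086). EIF3J, a subunit of the factor that holds the small subunit ready for mRNA, had 0.35, 0.37 and 0.42 (adjusted p = 0.057, 0.031 and 0.011).

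Of 14 tested genes for other TOP mRNAs, edgeR called 0 lower in any line and 1, 7 and 6 higher in LM2, BrM3 and BoM, with medians of 0.18, 0.31 and 0.33. At an unadjusted p under 0.05, 1, 0 and 1 were lower, and DESeq2 called 1, 0 and 0 lower. The gene that rose in LM2 was PABPC1, the poly(A)-binding protein, named after its value was seen (log2 fold change 0.37, adjusted p = 0.017). SNHG1, a host of small nucleolar RNAs, had 0.37, 0.50 and 0.80 (adjusted p = 0.17, 0.042 and 0.0018). EEF1D, an elongation factor subunit, had 0.40, 0.50 and 0.43 (adjusted p = 0.14, 0.045 and 0.071).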

How the data were processed

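The 18 libraries came from mRNA of LM2, BrM3 and BoM cells, prepared with a stranded kit and sequenced in pairs. Per the submitters' processing notes, CASAVA 1.8.2, STAR 2.7.0 and DESeq2 were used with hg38, and the authors deposited raw read counts per gene, without normalization. The strand setting of the counting is not given in the sources used here. The deposited fold changes and adjusted p-values of the authors were not used. The replicates were compared, and no pair agreed within sampling noise.

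The counts were fitted in R 4.3.3 with edgeR 4.0.16 (TMM, quasi-likelihood test, 6 groups, 12 residual degrees of freedom). Genes were kept where the highest scaled count exceeded 145, where the Jaccard index of replicates peaked, and 12095 genes passed. Alternatives were DESeq2 1.42.0, median-of-ratios factors, TMM without ribosomal protein genes, filterByExpr (18428 genes), no filter (41236 genes), pseudogene counts added, thinning to 17485841 counts, GC correction, a replicate block, the 6 libraries compared, and each library left out. The fits were tested on simulated data. The GENCODE release 44 annotation gave coordinates, lengths and overlaps.

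The members, lists and tests were chosen with earlier results of these data known. Values for every library are given for members called in the same direction in all 3 lines (at most 8 that fell), the 3 with the largest control difference, and those with the smallest p for a difference of responses and the smallest average change. From each other list the 2 called genes with the largest mean change are named. RPSA, RPS13 and other members with values were named because all 28 are accounted for.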

Additional observations from a re-analysis of the deposited data

How the results depend on the processing

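Members called lower in each line and on average changed by at most 1.5 times under every alternative, except that 6 rather than 10 were called in BoM when only its 6 libraries were fitted and 6 rather than 10 in LM2 without LM2 shWDR5 replicate 2. That fit of each line alone also ended calls of RPS4X, RPS6, RPS7, RPS10, RPS14 or RPS15A in LM2 or BoM, with adjusted p between 0.053 and 0.18. Members called higher depended on the processing. In LM2 they went from 0 to 2 with DESeq2, 1 with filterByExpr, 9 with no filter, 3 with the replicate block, 2 with GC correction, 10 with both GC correction and the block, and 1 with the 6 libraries only. In BrM3 they went from 1 to 2 with DESeq2, 8 with no filter, 4 with the block, 6 with GC correction, 11 with both, and 8 with the 6 libraries only. In BoM they went from 5 to 13 with no filter, 10 with GC correction, 12 with GC correction and block, and 0 with the 6 libraries only. Of all 12095 tested genes, 179, 349 and 655 were called higher in LM2, BrM3 and BoM in the main fit. The same lines gave 466, 765 and 1368 with the block, and 992, 1653 and 1916 with GC correction. With both, 1951, 2723 and 2883 were called. DESeq2 called 409, 641 and 1075 of 12092 genes, and no filter 259, 408 and 731 of 41236. Fits of the 6 libraries called 66, 584 and 195, and filterByExpr called 224 of 18428 in LM2. Between controls, members lower in BoM than LM2 went from 3 to 5 with no filter and 5 with the block, and those lower in BoM than BrM3 from 2 to 5 with no filter, 6 with the block, 4 with GC correction and 6 with the 6 libraries only. Those higher in BoM than BrM3 went from 2 to 4 with the block. Of all tested genes, 3124 were lower in BoM than LM2 in the main fit and 3637 with the block. For BoM against BrM3, 2398 were lower in the main fit, 2787 with the block, 2690 with GC correction and 2800 with the 6 libraries. Higher in BoM than BrM3 were 2160 genes and, with the block, 2630. No filter called 4210 lower in BoM than LM2 and 3268 lower in BoM than BrM3, of 41236. The cause of the changes in member counts was not tested. With each library left out, counts of members ranged from 6 to 10 lower and 0 to 5 higher in LM2, 7 to 10 and 0 to 8 in BrM3, 7 to 11 and 0 to 8 in BoM, and 11 to 11 and 9 to 12 on average. For controls they ranged from 2 to 4 lower and 2 to 5 higher in BrM3 against LM2, 2 to 4 and 3 to 4 in BoM against LM2, and 2 to 5 and 2 to 3 in BoM against BrM3. No counts over all tested genes are given beside the ranges with a library left out, so these ranges describe the members only.

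Log2 fold changes of members changed sign only with a library left out. Over those fits RPS2 ranged from -0.27 to 0.036 in LM2, between -0.11 and 0.21 in BoM and between -0.048 and 0.076 on average, RPS9 from -0.092 to 0.23 in LM2, RPS28 from -0.016 to 0.78 in LM2, RPS29 from -0.13 to 0.45 in BoM, and FAU between -0.093 and 0.22 in BrM3 and between -0.040 and 0.30 in BoM. None of these was called.

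The replicate number was not treated as a pairing in the main fit, because the study names no replicate block. The deviations of same-numbered shCtrl and shWDR5 libraries from their group means correlated from -0.18 to 0.73, and 2 of the 9 pairs were under 0.1. The remaining pairs correlated from 0.14 to 0.73. Because the deviations were taken from group means, libraries of different number would give no independent comparison. Whether the replicates were paired was not tested, and the fit with a block is given as an alternative. With the block, members called lower were 11, 10 and 11 in LM2, BrM3 and BoM, and RPS15 was among them in each line (adjusted p = 0.0051, 0.0014 and 0.003). Of all 12095 tested genes the block called 967, 1525 and 1818 lower, beside 577, 958 and 1297 in the main fit.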
